A study of Homo sapiens with 118 samples.

Results

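The genes described here are 44 cell cycle and mitosis genes, chosen by name. They were measured by 47 detector probes of a whole-transcriptome TempO-Seq panel, because BRCA1, CCNE1 and RRM2 had 2 probes each, and each probe is called a feature and named by its gene and probe number. They were 47 of the 22068 features used. The cells were differentiated HepaRG cells, an established human liver line derived from a liver tumour. They were exposed for 72 h, with daily renewal, to 1 of 8 histone deacetylase (HDAC) inhibitors, a class of drugs that keep histones acetylated. Each chemical was given at 5 concentrations, C1 (lowest) to C5 (highest).

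In µM, the labels gave 0.0417 (C1) and 0.86 (C5) for apicidin, 0.177 and 3.9 for mocetinostat, 0.00147 and 0.084 for panobinostat, 4.94 and 94.5 for scriptaid, 1.14 and 44 for tacedinaline, 0.0188 and 1.5237 for trichostatin A and 0.405 and 23.5 for vorinostat. For valproic acid the sample labels and the treatment protocol gave numbers in the same unit that differ by a constant factor, so only C1 to C5 are used for it. Concentrations differed between chemicals, and values of different chemicals are therefore set side by side without ranking them. Each group held 1 library from each of 3 HepaRG batches, except panobinostat C3 and trichostatin A C4, which lacked batch 3. Solvent controls were not used here, and C1 of the same chemical was the reference, so that a response already present at C1 would not be seen.

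The cell cycle is driven by cyclin-dependent kinases with their cyclins. In late G1, E2F factors switch on genes for DNA precursors and for the loading of the MCM helicase onto replication origins. In G2, another set of promoters, marked by CCAAT boxes and by cell cycle homology regions (CHR), raises the mitotic cyclins, kinases and spindle proteins. Differentiated HepaRG cultures hold hepatocyte-like and biliary-like cells.

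The promoters of 5 members that the results below turn on are shown, because they carry these motifs in different combinations. KIF20A, TYMS and MKI67 fell in more chemicals than other members, PLK1 is a mitotic kinase, and MCM6 is a licensing gene that rose. Each stretch is the 150 bases before the RefSeq transcription start on GRCh38.p14, read 5′ to 3′ on the gene's strand. Capitals mark the E2F words TTTCCCGC, TTTCGCGC, TTTGCCGC and TTTGGCGC, the CHR words TTTGAA and TTCGAA and the CCAAT word, each searched on both strands, so that ATTGG is a CCAAT box on the other strand.
KIF20A (chr5:138178962-138179111, plus strand): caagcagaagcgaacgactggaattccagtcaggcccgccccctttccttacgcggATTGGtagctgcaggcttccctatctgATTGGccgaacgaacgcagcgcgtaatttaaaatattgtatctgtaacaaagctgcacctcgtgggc
MKI67 (chr10:128126424-128126573, minus strand): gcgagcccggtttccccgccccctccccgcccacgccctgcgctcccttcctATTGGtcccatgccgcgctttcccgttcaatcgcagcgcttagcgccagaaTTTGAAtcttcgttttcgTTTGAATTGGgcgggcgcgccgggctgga
PLK1 (chr16:23678739-23678888, plus strand): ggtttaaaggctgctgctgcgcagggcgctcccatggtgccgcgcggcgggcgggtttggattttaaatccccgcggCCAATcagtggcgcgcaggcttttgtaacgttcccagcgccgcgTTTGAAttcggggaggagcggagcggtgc
TYMS (chr18:657503-657652, plus strand): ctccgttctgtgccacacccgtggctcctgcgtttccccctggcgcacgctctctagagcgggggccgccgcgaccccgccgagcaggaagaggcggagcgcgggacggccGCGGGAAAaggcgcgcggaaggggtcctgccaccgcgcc
MCM6 (chr2:135876444-135876593, minus strand): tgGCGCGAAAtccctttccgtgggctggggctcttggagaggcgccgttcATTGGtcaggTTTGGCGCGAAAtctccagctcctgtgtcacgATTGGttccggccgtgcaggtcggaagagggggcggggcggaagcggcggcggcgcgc
In MKI67 the second CHR word shares bases with a CCAAT box, and in MCM6 the E2F words lie as overlapping pairs on both strands.

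RefSeq promoter entries matched 36 of the 44 genes, with 52 entries in all. MCM4, MCM5, CCNE2, CDK2, AURKA, FOXM1, TPX2 and BIRC5 had no entry. Within the 250 bases before the start, an E2F word was present in 21.2% of the members' entries and in 2.79% of all 35116 entries of the same length. It was present in 5 of 13 entries of licensing genes and in 0 of 9 of spindle genes. Among licensing genes with rising calls, the MCM6 entry held 4 E2F words, the CDC6 entry 0 and the GMNN entries 0 and 1. Among those with falling calls, the CDT1 entry held 1, 1 MCM7 entry held 2, and the other MCM7 entries and all CDC45 entries held 0. The entry of MCM3, which was called in both directions, held 1. A CHR word was present in 23.1% of the members' entries and in 14.3% of all entries, and it lay in 6 of 13 entries of G2 and mitotic kinases and cyclins and in 4 of 9 of spindle genes. CCAAT was present in 75% of the members' entries and in 32% of all. These are counts of letters, and binding was not measured.

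Total counts per library ranged from 1061359 to 5250260, with a median of 3702007. Between C1 and C5 the mean total went from 3038905 to 1485592 in vorinostat and from 3646506 to 2325353 in scriptaid. The summed level of 12 hepatocyte marker genes lay between 37672 and 59894 CPM (counts scaled to a common library total) at C1, apart from 1 trichostatin A library at 12333, whereas 10 biliary or progenitor markers, of which 9 were in the table, summed to 67.2 to 155 CPM, with CFTR or EPCAM probes at 0 counts in 6 chemicals. The labels give the cell type as a liver progenitor. The hepatocyte sum was the higher in every library, but sums over different genes do not compare cell identities and do not bear on that label. In 6 chemicals, at least 1 library correlated with the rest of its group at r under 0.9. The lowest of each chemical were apicidin C4 batch 1 (0.877), mocetinostat C2 batch 3 (0.797), panobinostat C2 batch 2 (0.893), scriptaid C4 batch 3 (0.781), trichostatin A C1 batch 3 (0.863) and valproic acid C4 batch 3 (0.882). Mocetinostat C2 batch 1 (0.895), mocetinostat C3 batch 1 (0.871) and scriptaid C4 batches 1 (0.874) and 2 (0.8998) also lay under 0.9.

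Of the 47 features, 35 passed the low-count filter in all 8 chemicals, 5 passed in some (BRCA1_26902, RRM2_25733, CDC25A, CCNB2 and MCM2) and 7 in none. The features that passed in none were both CCNE1 probes, E2F1, E2F2, FOXM1, CDC20 and BRCA1_757. Their highest count in any library lay between 4 (CDC20, an activator of the anaphase-promoting complex) and 20 (CCNE1_22579). E2F1 and E2F2, which activate G1 to S genes, reached 12 and 9 counts, and FOXM1, which activates mitotic genes, reached 6. Changes in these genes were not detectable at this depth.

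The first question was which members changed at the highest concentration. At C5, all 11 spindle features fell against C1 in apicidin and in vorinostat and 10 fell in panobinostat, with 6 or 7 of the 7 or 8 tested features of the G2 and mitotic kinases and cyclins. Of the tested origin licensing features, 3 of 9 fell in apicidin, 6 of 9 in vorinostat and 0 of 10 in panobinostat, and the difference between role groups was not tested. A call required 2 things, an edgeR p-value adjusted by Benjamini and Hochberg over all features tested of less than 0.05 and a change of 1.5-fold or more, and "fell" and "rose" below are used of called features. In bulk lysates, fewer cycling cells and less RNA per cell cannot be told apart. In apicidin, 27 of 36 tested features fell (75%, against 15% of all features tested) and 0 rose (against 13.8%). In vorinostat, 27 of 35 fell (77.1%, against 24.9%) and 1 rose (2.86%, against 22.7%). In panobinostat, 19 of 40 fell (47.5%, against 9.46%) and 0 rose (against 6.77%). These shares lay well above the background in the falling direction and below it in the rising direction.

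In scriptaid, 18 of 39 features fell (46.2%, against 17%) and 1 rose (2.56%, against 12.8%). In valproic acid, 11 of 39 fell (28.2%, against 6.22%) and 2 rose (5.13%, against 4.84%). Shares in mocetinostat and tacedinaline lay closer to the background. In mocetinostat 5 of 40 fell (12.5%, against 15.7%) and 4 rose (10%, against 14.8%), and in tacedinaline 8 of 36 fell (22.2%, against 20.1%) and 4 rose (11.1%, against 18.7%). In neither chemical is the count a result about these genes.

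In trichostatin A, 0 of 40 features were called by edgeR, 2 had an unadjusted p-value under 0.05, and 0.0154% of all features fell and 0% rose. DESeq2 also called 0 members, where 0.339% of all features were called. The trichostatin A C1 library of batch 3 stood apart from the other libraries of its group. Its mean log2 CPM over 11 spindle features was 4.45, against 5.70 and 5.73 in batches 1 and 2, and its hepatocyte marker sum was 12333 CPM, against 48421 and 52266. Without that library 0 members were called, where 0.808% of all features were called. Without all libraries of batch 3 KIF20A was called, with a log2 change of -0.99 (edgeR adjusted p = 0.0322), where 2.24% of all features were called.

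The median log2 change of the tested members at C5 was -2.13 in apicidin, -0.27 in mocetinostat, -1.01 in panobinostat, -1.15 in scriptaid, -0.16 in tacedinaline, -0.01 in trichostatin A, -0.31 in valproic acid and -2.27 in vorinostat. The median over all tested features lay between 0.00 and 0.08 in the same comparisons. Over the 8 comparisons there were 115 falling and 12 rising calls, made by 30 and 6 features. In 114 of the 115 and in all 12, all 3 batches moved in the called direction and the C1 and C5 libraries did not overlap. The call rule itself selects for such separation, and the same count over all called features was not made. These counts are therefore no result particular to these genes. The exception was MCM4 in vorinostat, at a log2 change of -0.60 (edgeR adjusted p = 0.0416), which was lower in 2 of 3 batches.

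**Figure D1:**
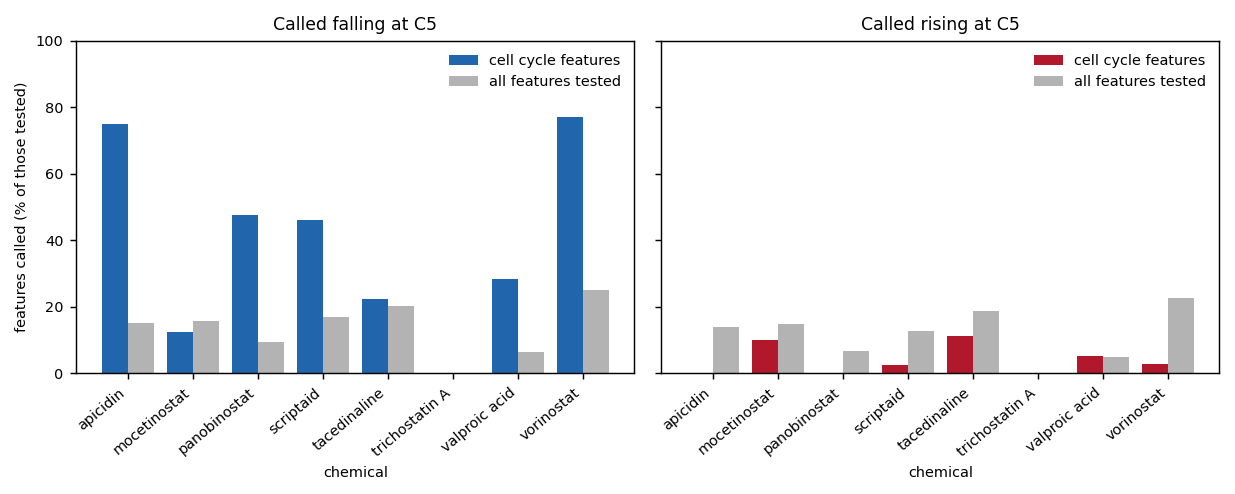
Percent of tested features called at C5 against C1, by chemical. Coloured bars are the cell cycle features, grey bars all features tested, with falling calls on the left and rising calls on the right. The falling share of the cell cycle features stands above the grey bar in apicidin, panobinostat, scriptaid, valproic acid and vorinostat, and close to it in mocetinostat and tacedinaline.

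Several of these counts depended on single batches. Falling calls at C5 in mocetinostat were 2 without batch 1, 2 without batch 2 and 8 without batch 3, and they were 10 when only the library that stood apart (C2 batch 3) was left out. With the HepaRG batch as a block they were 8, with TOP2A, CCNA2 and CCNB1 added. Panobinostat gave 12 falling calls without batch 1, scriptaid 10 without batch 2, tacedinaline 5 without batch 2, and valproic acid 4 without batch 1 and 6 without batch 2. Rising calls were 2 without batch 2 in mocetinostat, 0 without batch 2 and 3 without batch 3 in scriptaid, 0 without batch 1 or 2 and 1 without batch 3 in valproic acid, and 0 without batch 3 in vorinostat. Without scriptaid C4 batch 3, 20 features fell and 3 rose in scriptaid. The falling and rising shares of all features were not counted for these runs or for the leave-out runs at C2 to C4 below. Without the library that stood apart, all features called at C5 in either direction went from 3983 to 4744 in mocetinostat. In scriptaid they went from 3811 to 5447.

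Hepatocyte markers moved in the same comparisons. Of their 15 features, 13 to 15 fell at C5 in every chemical except trichostatin A, where 0 fell. Their summed level went from between 40861 and 56204 CPM at C1 to between 3185 and 4583 CPM at C5 in tacedinaline, and from between 41424 and 49704 CPM to between 20924 and 27824 CPM in panobinostat. Of the 11 biliary or progenitor features, 4 to 6 were tested, of which at most 1 fell and at most 3 rose. Their summed level was higher at C5 without overlap in apicidin (80.7 to 97.1 CPM at C1, 193 to 217 at C5) and panobinostat (70.0 to 90.0, then 137 to 150). It was also higher without overlap in valproic acid (74.4 to 80.3, then 126 to 146) and vorinostat (67.2 to 81.3, then 87.9 to 107). In mocetinostat, scriptaid, tacedinaline and trichostatin A the C1 and C5 sums overlapped. The part of these shifts in the members' changes was not tested.

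**Figure D2:**
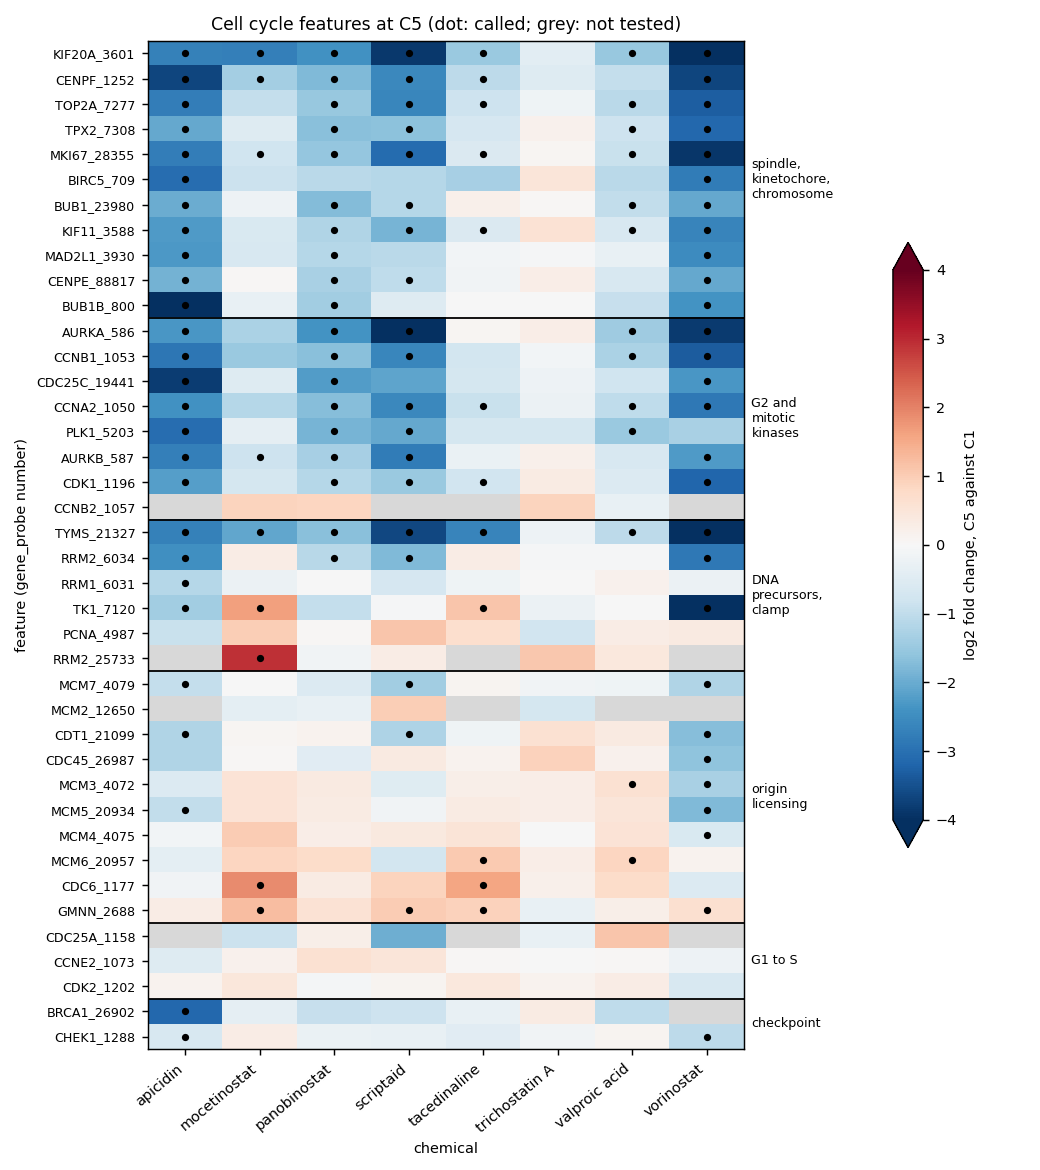
Log2 fold change at C5 against C1 for the 40 features tested in at least 1 chemical, grouped by role. Blue is lower and red higher at C5, a dot marks a called feature and grey a feature not tested. The spindle and mitotic kinase blocks are mostly blue in 7 chemicals, and red cells with a dot are limited to 6 features, of which 4 are in the licensing block. The colour of TK1 in vorinostat rests on C5 libraries with 0 counts.

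The spindle, kinetochore and chromosome group held 11 features, and all were tested in every chemical. All 11 fell in apicidin and in vorinostat, 10 in panobinostat, 8 in scriptaid, 6 in valproic acid, 5 in tacedinaline (against 20.1% of all features), 3 in mocetinostat (against 15.7%) and 0 in trichostatin A, and 0 rose. Their median log2 change was -2.71 in apicidin, -2.80 in vorinostat, -1.52 in panobinostat, -1.64 in scriptaid, -0.93 in valproic acid, -0.64 in mocetinostat, -0.59 in tacedinaline and 0.03 in trichostatin A. KIF20A and MKI67 fell in 7 chemicals, and CENPF, TOP2A and KIF11 in 6.

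KIF20A encodes a kinesin of the central spindle that is needed for cytokinesis, and its promoter stretch above holds CCAAT boxes but no CHR word. In vorinostat it was at 54.6, 58.4 and 68.1 CPM in batches 1, 2 and 3 at C1 and at 4.56, 0.523 and 3.26 CPM at C5. All C5 libraries lay far below all C1 libraries, and the log2 change was -4.58 ± 0.48 (± gives the SE of a log2 change throughout; edgeR adjusted p = 1.4e-09). In mocetinostat, where few members were called, it went from 43.3, 67.9 and 53.3 CPM to 4.33, 11.9 and 8.59 CPM, again without overlap (log2 change -2.73 ± 0.56, edgeR adjusted p = 0.0014). In the other 5 chemicals in which it fell, its log2 change lay between -3.86 (scriptaid) and -1.49 (tacedinaline).

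KIF20A also showed the library that stood apart in scriptaid. At scriptaid C4 it was at 17.5 and 15.5 CPM in batches 1 and 2 and at 78.4 CPM in batch 3, above the 36.8 to 54.2 CPM of C1. TYMS in the same libraries was at 557, 453 and 2069 CPM. At scriptaid C5 no library stood apart for KIF20A, with 1.81, 5.16 and 1.04 CPM.

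MKI67 encodes the Ki-67 antigen, a chromosome surface protein used to mark proliferating cells, and its promoter holds both CHR words and CCAAT boxes. In vorinostat it went from 298, 272 and 313 CPM at C1 to 25.5, 15.7 and 20.2 CPM at C5 (log2 change -3.88 ± 0.28, edgeR adjusted p = 2.25e-13). The groups did not overlap, and the batches differed little. Its changes were smaller in tacedinaline, from 184, 226 and 256 CPM to 111, 151 and 184 CPM (log2 change -0.59 ± 0.18, edgeR adjusted p = 0.00622). That call did not hold without batch 1 or without batch 2, nor did the call in mocetinostat (log2 change -0.79), and the call in valproic acid (-0.88) did not hold without batch 1.

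CENPF encodes a kinetochore protein that accumulates in G2. In apicidin it went from 45.5, 25.8 and 32.8 CPM at C1 to 3.49, 1.86 and 2.82 CPM at C5 (log2 change -3.66 ± 0.36, edgeR adjusted p = 2.13e-07). In vorinostat it was at 43.1, 30.4 and 45.6 CPM at C1 and at 0, 2.62 and 5.87 CPM at C5, at a log2 change of -3.68 ± 0.51. In both chemicals every C5 library lay below every C1 library. Its calls in mocetinostat and scriptaid did not hold without batch 1 or without batch 2, and that in tacedinaline did not hold without batch 2. In valproic acid it was not called (log2 change -0.94, edgeR adjusted p = 0.061) and was called without batch 3.

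BUB1B, a kinase of the spindle assembly checkpoint, had the lowest value of the group, a log2 change of -4.81 in apicidin, where it went from 12.5, 8.89 and 14.3 CPM at C1 to 0, 0 and 1.18 CPM at C5. TOP2A, the topoisomerase that untangles chromosomes before they separate, had log2 changes between -3.30 (vorinostat) and -0.83 (tacedinaline) in the chemicals in which it fell. KIF11, the motor that pushes spindle poles apart, changed between -2.64 (vorinostat) and -0.59 (tacedinaline). CENPE and MAD2L1, of the kinetochore and the spindle checkpoint, fell in 4 and 3 chemicals.

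**Figure D3:**
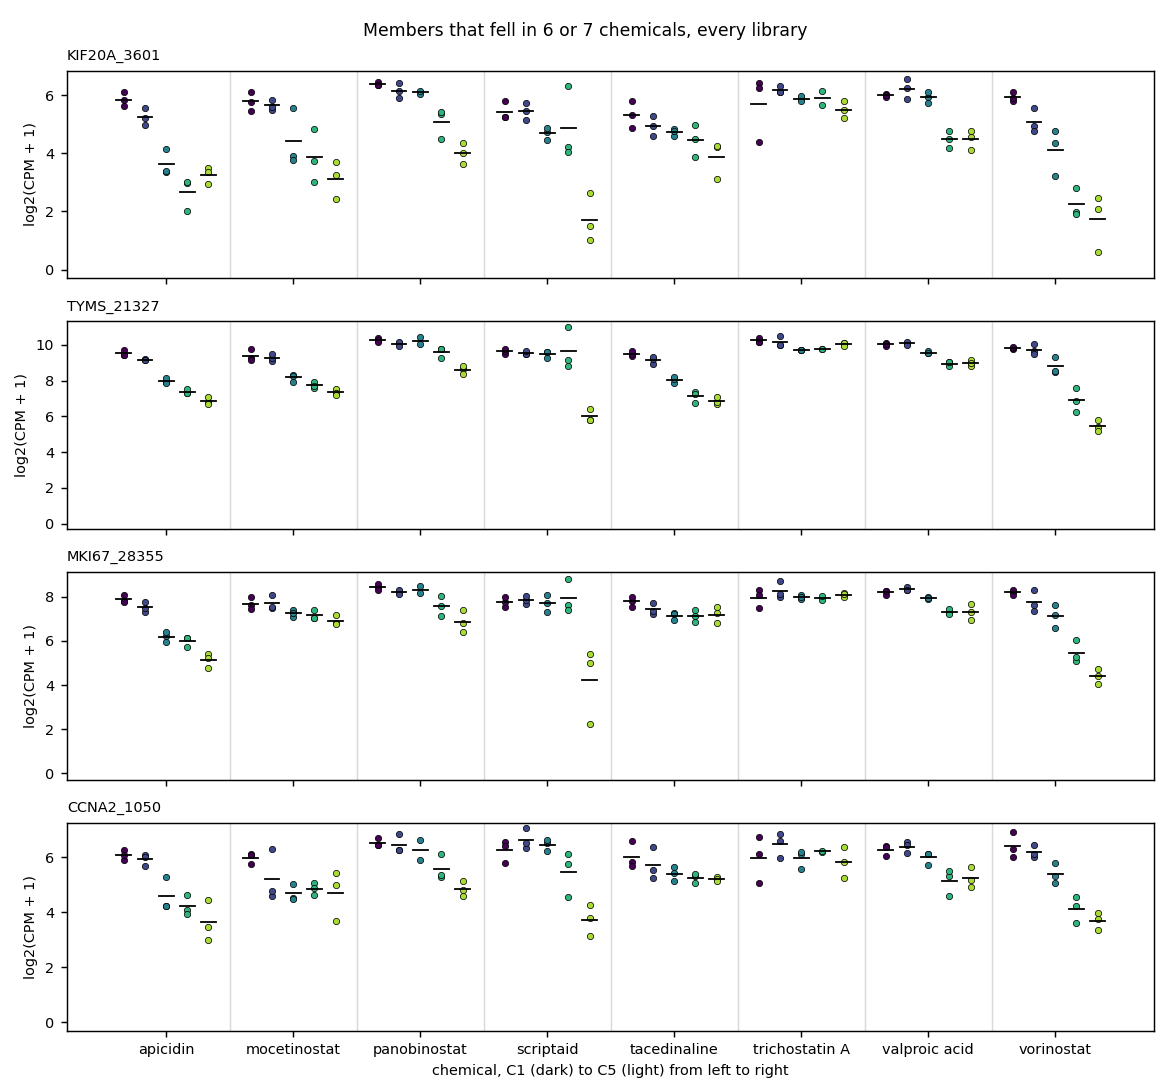
Level of KIF20A, TYMS, MKI67 and CCNA2 in every library, as log2(CPM + 1), for C1 (dark) to C5 (light) of each chemical. Points are libraries and bars group means. KIF20A, TYMS and MKI67 fell in every chemical except trichostatin A, and at scriptaid C4 the library of batch 3 lies above the other libraries for these 3 features.

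The group of G2 and mitotic kinases, cyclins and their regulators held 10 features, of which 7 or 8 were tested in a chemical. Of the tested features, 7 of 7 fell in apicidin, 7 of 8 in panobinostat, 6 of 7 in scriptaid, 6 of 7 in vorinostat, 4 of 8 in valproic acid, 2 of 7 in tacedinaline (against 20.1% of all features), 1 of 8 in mocetinostat (against 15.7%) and 0 of 8 in trichostatin A. None rose in edgeR at this threshold in the 8 comparisons. CCNB2, cyclin B2, was tested in 4 chemicals with log2 changes between -0.30 and 0.90 and was called in none of them.

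CCNA2, cyclin A2, acts in S phase and at the start of mitosis. In vorinostat it was at 78.7, 62.8 and 119 CPM at C1 and at 14.6, 12.6 and 9.13 CPM at C5 (log2 change -2.86 ± 0.31, edgeR adjusted p = 2.92e-09), without overlap. It fell in 6 chemicals. In mocetinostat it was at 68.8, 66.2 and 53.1 CPM at C1 and at 12, 30.8 and 41.8 CPM at C5 (log2 change -1.15, edgeR adjusted p = 0.0644), and with the batch as a block it was called (adjusted p = 0.024). Its calls in tacedinaline and valproic acid did not hold without batch 3 and without batch 2, respectively.

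CCNB1, cyclin B1, activates CDK1 for entry into mitosis. It went from 40.8, 45.4 and 73.9 CPM at C1 of vorinostat to 0, 2.62 and 12.4 CPM at C5 (log2 change -3.34 ± 0.52, edgeR adjusted p = 2.26e-06). The C5 libraries differed among themselves and all lay below C1. It fell in 5 chemicals, of which panobinostat did not hold without batch 1. CDK1, its partner kinase, went from 307 ± 47.7 CPM to 32.8 ± 15.8 CPM (SD, n = 3) in vorinostat and fell in 5 chemicals, with log2 changes between -3.17 and -0.76.

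AURKA, a kinase of the centrosome and spindle poles, was at 19.5, 23.1 and 18.5 CPM at C1 of scriptaid and at 0, 0 and 1.04 CPM at C5, where no library had more than 3 counts. This was at least 16.8-fold lower when the C5 libraries are set to 3 counts each (edgeR adjusted p = 1.83e-05). In vorinostat it was at least 6.61-fold lower by the same floor. It also fell in panobinostat, and its calls in apicidin and valproic acid did not hold without batch 1 or without batch 2, nor in apicidin without batch 3. PLK1, whose promoter holds a CCAAT box and a CHR word, fell in 4 chemicals, and in apicidin it went from 5.17, 11.1 and 12.3 CPM to 1.25, 0.233 and 1.88 CPM (log2 change -3.05 ± 0.70, edgeR adjusted p = 0.00208).

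Of the 6 features for DNA precursors and the replication clamp, 4 of 5 tested fell in apicidin (against 15% of all features, median log2 change -1.40) and 3 of 5 in vorinostat (against 24.9%, -2.85). In panobinostat 2 of 6 fell (against 9.46%, -0.54) and in scriptaid 2 of 6 (against 17%, -0.35). In these chemicals 0 rose (against 13.8%, 22.7%, 6.77% and 12.8%). In mocetinostat 1 of 6 fell (against 15.7%) and 2 rose (against 14.8%, 0.63). In tacedinaline 1 of 5 fell (against 20.1%) and 1 rose (against 18.7%, 0.29). In valproic acid 1 of 6 fell (against 6.22%, 0.08), and in trichostatin A 0 of 6 were called (-0.12). The tacedinaline counts and the falling count of mocetinostat lay near the background and are no result about these features. TYMS, thymidylate synthase, which makes the thymidine nucleotide for DNA, fell in 7 chemicals. In vorinostat it was at 879, 897 and 941 CPM at C1 and at 41.9, 35.1 and 54.1 CPM at C5 (log2 change -4.38 ± 0.26, edgeR adjusted p = 1.64e-15). In tacedinaline it went from 659, 713 and 791 CPM to 101, 112 and 134 CPM (log2 change -2.64 ± 0.16, edgeR adjusted p = 4.8e-18). The libraries of a group lay close together in both chemicals, and no alternative setting ended any of its 7 calls.

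RRM2 encodes the regulated subunit of ribonucleotide reductase, which makes deoxyribonucleotides. Probe RRM2_6034 went from 77.5, 61.8 and 117 CPM at C1 of vorinostat to 7.29, 9.94 and 17.6 CPM at C5 (log2 change -2.85 ± 0.31, edgeR adjusted p = 2.98e-09). It fell in 4 chemicals, of which panobinostat did not hold without batch 1 and scriptaid did not hold without batch 1 or without batch 2. In tacedinaline it was at 78, 78.9 and 117 CPM at C1 and at 84.5, 102 and 152 CPM at C5 and was not called. The second probe, RRM2_25733, was near the count limit and rose in mocetinostat, from 0.245, 0.211 and 1.25 CPM to 7.9, 2.28 and 2.96 CPM (edgeR adjusted p = 0.0424, and 0.0727 with the batch as a block), where RRM2_6034 was not called (log2 change 0.28).

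TK1, thymidine kinase of the salvage pathway, was called in both directions. It rose in mocetinostat, from 7.83, 6.54 and 8.47 CPM to 19.9, 23.8 and 27.8 CPM (log2 change 1.64 ± 0.34, edgeR adjusted p = 0.00159), and in tacedinaline, from 6.21, 14.2 and 14.8 CPM to 32.2, 26 and 22.1 CPM (log2 change 1.10 ± 0.37, edgeR adjusted p = 0.0135). It fell in apicidin, from 8.35, 12 and 6.91 CPM to 3.99, 3.02 and 3.29 CPM (log2 change -1.40 ± 0.52, edgeR adjusted p = 0.0449). In none of the 3 chemicals did C1 and C5 overlap, although counts were low, the call in apicidin was lost whichever batch was left out, that in mocetinostat did not hold without batch 2 and that in tacedinaline did not hold without batch 1. In vorinostat TK1 was at 14.4, 3.37 and 10.3 CPM at C1 and had 0 counts in all C5 libraries, at least 4.71-fold lower at a floor of 3 counts per library (edgeR adjusted p = 5.11e-05), in libraries whose totals were lower at C5. PCNA, the sliding clamp of the replication fork, was called in no chemical, with log2 changes between -0.89 and 1.12.

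The helicase loading and origin licensing group held 10 features. In apicidin 3 of 9 tested features fell (against 15% of all features) and 0 rose, in vorinostat 6 of 9 fell (against 24.9%) and 1 rose (against 22.7%), and in scriptaid 2 of 10 fell (against 17%) and 1 rose (against 12.8%). In mocetinostat 2 of 10 rose (against 14.8%), in tacedinaline 3 of 9 (against 18.7%) and in valproic acid 2 of 9 (against 4.84%), and in these 3 chemicals 0 fell. None of 10 was called by edgeR in panobinostat or trichostatin A. The single rising features of scriptaid and vorinostat lie below the background share. The median log2 change was -0.55 in apicidin, -1.19 in vorinostat, 0.54 in mocetinostat, 0.32 in tacedinaline, 0.49 in valproic acid, 0.30 in panobinostat, 0.11 in scriptaid and 0.23 in trichostatin A. A positive median was thus also present where no member was called, near that of tacedinaline but smaller than in mocetinostat and valproic acid.

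GMNN encodes geminin, which blocks a further round of origin loading after replication has begun. It rose in 4 chemicals and fell in none. In mocetinostat it was at 36.7, 52.5 and 29.4 CPM at C1 and at 103, 75.3 and 102 CPM at C5 (log2 change 1.24 ± 0.25, edgeR adjusted p = 0.00134). In vorinostat, where most members fell, it went from 63.7, 67.5 and 65.9 CPM to 76.6, 91 and 136 CPM (log2 change 0.63 ± 0.20, edgeR adjusted p = 0.0106). Every C5 library lay above every C1 library in both, but the call in vorinostat did not hold without batch 3, and the call in scriptaid (log2 change 1.00) did not hold without batch 2.

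CDC6, which loads the MCM helicase together with CDT1, rose in mocetinostat from 17.1, 19 and 14 CPM to 46.1, 64 and 74.7 CPM (log2 change 1.88 ± 0.31, edgeR adjusted p = 0.000263). In tacedinaline it rose from 24.8, 26.8 and 21.2 CPM to 49, 61.3 and 105 CPM (log2 change 1.57 ± 0.29, edgeR adjusted p = 1.61e-05). The groups did not overlap in either. CDT1 went the other way in 3 chemicals, and in vorinostat it was at 20.1, 22.3 and 23.1 CPM at C1 and at 3.65, 5.76 and 10.4 CPM at C5 (log2 change -1.69 ± 0.49, edgeR adjusted p = 0.0044). Its call in apicidin did not hold without batch 3, and that in scriptaid was lost whichever batch was left out.

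The MCM genes encode the subunits of the replicative helicase. MCM3 rose in valproic acid, from 210, 240 and 227 CPM to 335, 379 and 316 CPM (log2 change 0.61 ± 0.15, edgeR adjusted p = 0.00927), and fell in vorinostat, from 233, 248 and 227 CPM to 90.2, 70.1 and 130 CPM (log2 change -1.29 ± 0.22, edgeR adjusted p = 7.6e-06). The libraries did not overlap in either, and the call in valproic acid did not hold without batch 1 or without batch 2. MCM6, with E2F words in its promoter, rose in tacedinaline from 9.75, 15.7 and 11.5 CPM to 21.8, 22.2 and 34.2 CPM (log2 change 1.05 ± 0.33, edgeR adjusted p = 0.00958) and in valproic acid (log2 change 0.86). MCM7 fell in apicidin, scriptaid and vorinostat, and in scriptaid it went from 127, 131 and 93.5 CPM to 38.5, 51.9 and 43.7 CPM (log2 change -1.39 ± 0.27, edgeR adjusted p = 0.000848), but its call in apicidin did not hold without batch 3. MCM2 was tested in 4 chemicals and called in none.

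**Figure D4:**
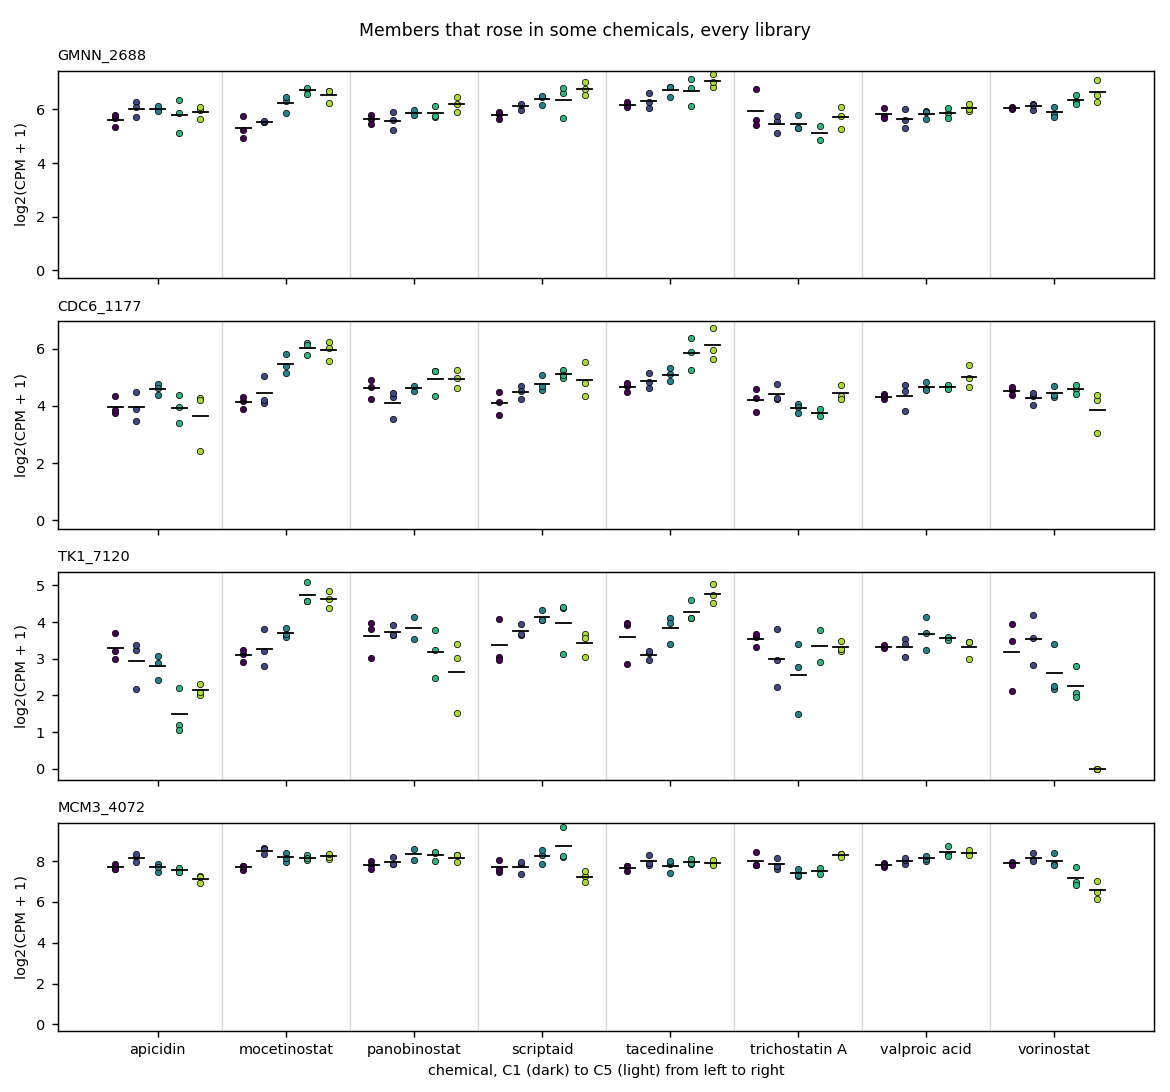
Level of GMNN, CDC6, TK1 and MCM3 in every library, as log2(CPM + 1), for C1 (dark) to C5 (light) of each chemical. Points are libraries and bars group means. GMNN, CDC6 and TK1 climb from C1 to C5 in mocetinostat and tacedinaline, and TK1 lies at 0 in all libraries of vorinostat C5.

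Of the 7 G1 to S features, CDK2, CCNE2 and CDC25A were tested in some or all chemicals, and none was called in a C5 comparison. At vorinostat C4, 1 of the 2 tested features of this group fell (against 16.7% of all features), at a group median log2 change of -0.95. CDK2, the kinase of S phase entry, was at 28.1, 30.6 and 35 CPM at C1 of vorinostat and at 8.2, 21.5 and 28.7 CPM at C5 (log2 change -0.65 ± 0.36, edgeR adjusted p = 0.136), where the groups overlapped. CCNE2, cyclin E2, had log2 changes between -0.53 and 0.62 over the chemicals, and in panobinostat it was at 19.9, 11.9 and 16.8 CPM at C1 and at 26.7, 15.7 and 32.2 CPM at C5 (edgeR adjusted p = 0.337), with overlap. CDC25A, a phosphatase that activates cyclin-dependent kinases, was at 4.8, 1.72 and 4.46 CPM at C1 of scriptaid and at 1.36, 1.21 and 0 CPM at C5 (log2 change -1.96, edgeR adjusted p = 0.216), which is few counts although the groups did not overlap.

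Among checkpoint and repair genes, CHEK1, the kinase that halts the cycle when replication stalls, fell in vorinostat from 93, 79.4 and 85.5 CPM to 43.8, 26.7 and 54.1 CPM (log2 change -1.06 ± 0.25, edgeR adjusted p = 0.000704). It also fell in apicidin (log2 change -0.64), a call that did not hold without batch 2 or without batch 3. Neither group pair overlapped. BRCA1_26902, for a protein of homologous recombination, fell in apicidin from 1.39, 3.33 and 2.3 CPM to 0.249, 0.465 and 0 CPM, at least 3.27-fold at a floor of 3 counts per library (edgeR adjusted p = 0.0426), and this call was lost whichever batch was left out.

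The next question was from which concentration the members changed. Steps were uneven. C2, C3 and C4 were 0.125, 0.3755 and 0.5 µM in apicidin, 0.532, 1.595 and 2.5 in mocetinostat, and 0.0044, 0.0132 and 0.0396 in panobinostat. They were 14.8, 44.5 and 60 in scriptaid, and 3.43, 10.3 and 30.9 in tacedinaline. In trichostatin A they were 0.0564, 0.169 and 0.508, and in vorinostat 1.21, 3.64 and 10.9. In valproic acid the labels put C4 close to C5. The same label is thus not the same step in different chemicals. At C2, 0 members were called by edgeR in any chemical, where the falling and rising shares of all features were 0.0315% and 0.0708% in apicidin, 0.0383% and 0.153% in mocetinostat, 0.0883% and 0.297% in tacedinaline, 0.0086% each in vorinostat and 0% in the other 4, and 0 to 11 members per chemical had an unadjusted p-value under 0.05. DESeq2 called 1 at mocetinostat C2. Without batch 3, 10 members were called at mocetinostat C2, and without its C2 library of batch 3 alone 14 were. The share of all features called at C2 was not counted in these runs, so these counts are not set against a background. At C3, 15 features fell in apicidin (41.7%, against 8.39% of all features) and 13 in vorinostat (37.1%, against 3.88%), and 0 rose in either (against 6.94% and 3.18%). In tacedinaline TYMS and MKI67 fell (5.56%, against 6.46%) and 0 rose (against 5.44%), and in mocetinostat TYMS fell (2.5%, against 5.14%) and CDC6, GMNN and RRM2_25733 rose (7.5%, against 6.44%).

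The number at vorinostat C3 was 3 without batch 1, 2 without batch 2 and 8 without batch 3. At apicidin C3 it was 9 without batch 2. At C3 members called in mocetinostat were 2 without batch 1 and 0 without batch 2, and in tacedinaline 1 without batch 2 and 4 without batch 3. No member was called at C3 in panobinostat, scriptaid, trichostatin A or valproic acid, where 0% of all features fell and 0.00763% rose in panobinostat, 0.876% and 0.461% in scriptaid, 0% and 0% in trichostatin A and 0.84% and 0.293% in valproic acid, and 2 to 7 members had an unadjusted p-value under 0.05. DESeq2 called 0 there too, and without scriptaid C4 batch 3 edgeR called 4 at scriptaid C3.

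At C4, 20 features fell in apicidin (55.6%, against 11.2%) and 24 in vorinostat (68.6%, against 16.7%), and 0 rose in either (against 11.1% and 15.6%). In valproic acid 13 fell (33.3%, against 6.35%) and MCM3, MCM6 and CDC45 rose (7.69%, against 5.51%). In panobinostat AURKA, KIF20A, TPX2, TYMS and BUB1 fell (12.5%, against 1.4%) and 0 rose (against 1.16%). In tacedinaline 5 fell (13.9%, against 16.4%) and CDC6, GMNN and MCM6 rose (8.33%, against 16.3%), and in mocetinostat 3 fell (7.5%, against 11.6%) and TK1, CDC6 and GMNN rose (7.5%, against 12.1%). In scriptaid CCNB1 fell (2.56%, against 2.67%) and CDC45, a helicase subunit, rose (2.56%, against 2.2%), and in trichostatin A 0 were called by edgeR and by DESeq2, with 5 at an unadjusted p-value under 0.05 and 0% of all features called.

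The C4 counts moved with single batches too. In valproic acid 6 members were called without batch 1 and 9 without batch 2. In panobinostat 0 were called without batch 1, 3 without batch 2, 3 without batch 3 and 8 with the batch as a block. In scriptaid 0 were called without batch 1 or without batch 2, 8 without batch 3 and 9 without its C4 library of batch 3 alone, in mocetinostat 3 were called without batch 2, and in tacedinaline 5 without batch 3.

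The plot of role group levels gives the spindle and the licensing features in every library. The mean log2 CPM of the 11 spindle features went from 5.45 ± 0.07 at C1 of scriptaid to 4.88 ± 0.09 at C4 and 3.52 ± 0.47 at C5 (SD, n = 3). Over the same range the mean of 9 licensing features went from 5.29 ± 0.02 to 6.12 ± 0.09 at C4 and back to 5.10 ± 0.23 at C5. At C4 all 10 licensing features had a positive log2 change, with a median of 0.91, although only CDC45 was called, and at C5 5 of 10 were positive. At C4 the library that stood apart (batch 3) lay at 4.82 for the spindle mean and at 6.19 for the licensing mean, close to the other batches. Single features of that library nevertheless deviated in both directions. In raw counts CENPF was at 1, against 58 and 93 in batches 1 and 2, and KIF11 at 647, against 217 and 348. MCM4 was at 38, against 215 and 247, and MCM3 at 1058, against 641 and 982.

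In valproic acid the spindle mean went from 5.65 ± 0.08 at C1 to 4.72 ± 0.42 at C5 and the licensing mean from 5.41 ± 0.10 to 5.84 ± 0.07 (SD, n = 3). In mocetinostat the licensing mean went from 5.31 ± 0.09 to 5.98 ± 0.14 and in tacedinaline from 5.56 ± 0.05 to 6.06 ± 0.27, while the spindle means went from 5.32 ± 0.35 to 4.51 ± 0.27 and from 5.52 ± 0.17 to 4.92 ± 0.21. In panobinostat the spindle mean went from 5.85 ± 0.03 to 4.31 ± 0.38 and the licensing mean from 5.48 ± 0.10 to 5.67 ± 0.18. In trichostatin A the spindle mean was 5.29 ± 0.73 at C1 and 5.43 ± 0.14 at C5 and the licensing mean 5.42 ± 0.14 and 5.65 ± 0.11. In apicidin and vorinostat both means were lower at C5. The spindle mean went from 5.48 ± 0.11 to 2.84 ± 0.45 in apicidin and from 5.81 ± 0.23 to 2.84 ± 0.42 in vorinostat, and the licensing mean from 5.24 ± 0.19 to 4.65 ± 0.13 and from 5.54 ± 0.15 to 4.57 ± 0.43.

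**Figure D5:**
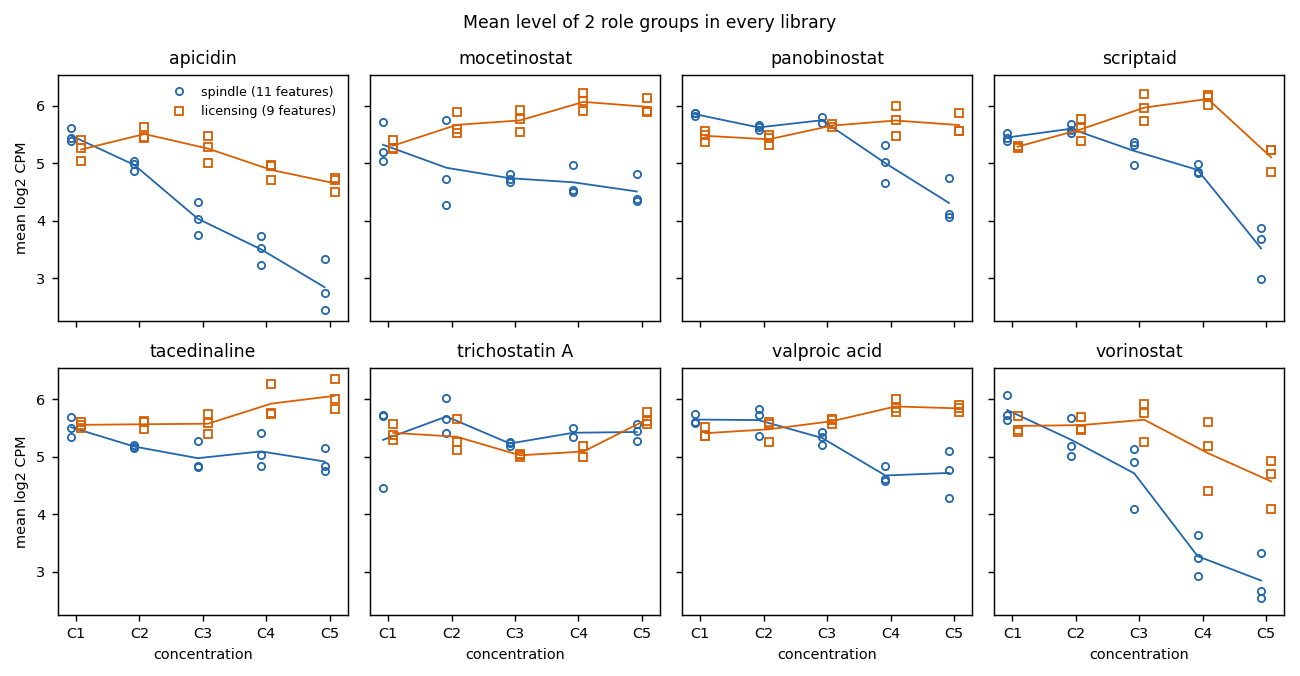
Mean log2 CPM of 11 spindle features (circles) and 9 licensing features (squares) in every library, by chemical and concentration, with lines through the group means. The spindle mean is lower at C5 than at C1 in every chemical except trichostatin A. The licensing mean of scriptaid rises to C4 and drops at C5, and 1 trichostatin A library at C1 lies at 4.45 for the spindle mean.

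Other genes of the cell cycle were described from a list of 82 that are no members, of which 80 were in the table with 83 features. At C5, 43 of 74 tested features fell and 1 rose in apicidin, 47 of 71 and 2 in vorinostat, 29 of 79 and 1 in panobinostat and 27 of 75 and 4 in scriptaid. In valproic acid 11 of 78 fell and 2 rose, in mocetinostat 6 of 78 and 9, in tacedinaline 11 of 74 and 11, and in trichostatin A 0 of 80 were called. Over the chemicals 174 of 609 tests fell and 30 rose. Against the falling shares of all features given above, the falling counts of this list lay above them in apicidin, vorinostat, panobinostat, scriptaid and valproic acid and below them in mocetinostat and tacedinaline (15.7% and 20.1% of all features). Its rising counts lay below the shares of all features in every chemical with a call (13.8% in apicidin, 22.7% in vorinostat, 6.77% in panobinostat, 12.8% in scriptaid, 4.84% in valproic acid, 14.8% in mocetinostat and 18.7% in tacedinaline).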

How the data were processed

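TempO-Seq counts of 118 libraries in 40 groups were used. The authors deposited a table of raw read counts per detector probe, not normalised, and per the labels the submitters used bcl2fastq 2.20.422, fastp 0.23.2, STAR 2.7.10b and DESeq2 1.38.0, while the genome build was not given in the sources used here. Of 22069 rows, 1 lacked values in some libraries and was left out. For each chemical, features passing the default low-count filter of edgeR 4.0.16 (R 4.3.3) were scaled by TMM and fitted with the quasi-likelihood test, C2 to C5 against C1, with adjustment by Benjamini and Hochberg. The test was checked on simulated counts. CPM used TMM-scaled library totals, and counting error was the only error a floor of 3 counts covered. Each chemical lay wholly on 1 of 2 plates. Batches were paired by the labels, and deviations from group means correlated at a median of 0.0533 within a batch (232 pairs of libraries) and -0.0241 between batches (464). P-values measure the spread between these libraries.

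In each role group the 3 features called at C5 in the most chemicals, and those called in both directions, were named with all library values. BUB1B, PLK1, CDK1, CDC6, MCM6 and RRM2_25733 were added once values had been seen. The members and lists were chosen with earlier results of these data known. DESeq2 1.42.0, no low-count filter, the batch as a block, leaving out each batch and leaving out the library least like its group were the alternatives.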

Additional observations from a re-analysis of the deposited data

Results flagged for a closer look

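TK1 and MCM3 were called in both directions at C5, and the difference between the log2 changes of the chemicals was tested in 1 edgeR model of all 118 libraries over 15632 features, with adjustment by Benjamini and Hochberg. TK1 differed by 2.97 ± 0.63 (SE) between mocetinostat and apicidin (adjusted p = 0.000606) and by 2.46 ± 0.64 between tacedinaline and apicidin (adjusted p = 0.00956). TK1 differed by 9.48 between mocetinostat and vorinostat (adjusted p = 2.96e-08) and by 8.97 between tacedinaline and vorinostat (adjusted p = 1.31e-06), but these sizes are no bound, because vorinostat C5 had 0 counts in all 3 libraries. MCM3 differed by 1.99 ± 0.32 between valproic acid and vorinostat (adjusted p = 1.14e-06). The concentrations differed between the chemicals in each pair, and the plates differed in all of these pairs except mocetinostat with apicidin and tacedinaline with vorinostat.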

How the results depend on the processing

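No named member that was called reversed its direction under any alternative run, and no alternative ended a call of TYMS or KIF20A at C5. Counts of members called moved by more than 1.5 times as follows. Except in trichostatin A, the falling and rising shares of all features were not counted for these runs, so the counts are not set against a background. With DESeq2 they were 1 at mocetinostat C2, 8 falling at mocetinostat C5, 9 at panobinostat C4, 1 rising at panobinostat C5, 7 at scriptaid C4 and 3 rising at scriptaid C5. With no low-count filter they were 8 falling at mocetinostat C5, 10 at panobinostat C4, 5 at scriptaid C4, 1 rising at valproic acid C5 and 0 rising at vorinostat C5. With the HepaRG batch as a block (replicate block) they were 8 falling at mocetinostat C5 and 8 at panobinostat C4. The block also ended the rising call of RRM2_25733 in mocetinostat and the call of MCM4 in vorinostat, whose fold was then under 1.5, and gave a call to CENPE in valproic acid (adjusted p = 0.048). It moved no other count by over 1.5 times. Without the library least like its group, an alternative chosen after seeing the data, they were 14 at mocetinostat C2, 10 falling at mocetinostat C5, 11 at panobinostat C4, 2 rising at panobinostat C5, 4 at scriptaid C3, 9 at scriptaid C4 and 3 rising at scriptaid C5.

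Leaving out 1 batch at a time gave 9 to 14 at apicidin C3, 0 to 10 at mocetinostat C2, 0 to 3 at mocetinostat C3, 3 to 7 at mocetinostat C4, 2 to 8 falling and 2 to 3 rising at mocetinostat C5, 0 to 3 at panobinostat C4, and 12 to 18 falling and 0 to 1 rising at panobinostat C5. It gave 0 to 8 at scriptaid C4, 10 to 18 falling and 0 to 3 rising at scriptaid C5, 1 to 4 at tacedinaline C3, 5 to 6 at tacedinaline C4, 5 to 11 falling at tacedinaline C5 and 0 to 1 falling at trichostatin A C5. It gave 6 to 13 at valproic acid C4, 4 to 13 falling and 0 to 1 rising at valproic acid C5, 2 to 8 at vorinostat C3 and 0 to 1 rising at vorinostat C5. Of 140 values of named members, DESeq2 kept the call status of 136 and added a call to 4, and leaving out batch 1, 2 or 3 ended 15, 16 and 9 calls. The cause of these shifts was not tested.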

Other observations

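Among the cell cycle genes that are no members, CDC7, the kinase that triggers origin firing, was singled out after its values were seen. It rose at C5 in 7 chemicals. In mocetinostat it was at 9.05, 10.3 and 9.47 CPM at C1 and at 33.4, 49.3 and 32.9 CPM at C5, without overlap (log2 change 2.00 ± 0.29, edgeR adjusted p = 8.2e-05). In vorinostat, where most mitotic genes fell, it went from 2.87, 10.1 and 12.2 CPM to 31, 38.2 and 33.9 CPM (log2 change 1.95, edgeR adjusted p = 6.2e-05). In trichostatin A it was at 14.1, 8.72 and 8.2 CPM at C1 and at 20.1, 17.1 and 14.7 CPM at C5 and was not called (log2 change 0.73, edgeR adjusted p = 0.519). CDCA8, HMMR, NUSAP1 and PBK, of the chromosomal passenger complex, the spindle and mitotic kinases, fell in 7 chemicals.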
